A study of Mus musculus with 18 samples.

Results

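The genes described here encode the proteins of the cytosolic ribosome. They were taken as the probe sets annotated to exactly 1 gene symbol of the Rpl, Rps or Rplp series or to Rpsa, leaving out the ribosomal S6 kinases, the mitochondrial ribosomal proteins and named pseudogenes. Such probe sets numbered 217 and named 61 genes, of 19938 genes named on the array, and all 61 matched a RefSeq gene identifier. They comprised 21 genes of the small subunit, 30 of the large subunit, 3 of the acidic stalk and 7 paralogues. A gene with several probe sets was read from that with the highest mean over the arrays. For 59 of the 61 the signal was above the 40th percentile of its array in 4 arrays or more, and these 59 were tested among 13387 genes. The other two, the paralogues Rpl10l and Rpl39l, did not pass this filter. A further 17 symbols of the series, such as Rpl3, Rpl11 and Rps27, occurred only on probe sets shared with other symbols and were not included.

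The study asked how loss of Zeb2, a zinc-finger transcriptional repressor, alters monocyte and neutrophil identity. Cells were sorted by flow cytometry from mouse bone marrow, as monocytes with high surface Ly-6C and as neutrophils, and 18 Affymetrix Mouse Gene 1.0 ST arrays were run, 9 for each cell type. Each cell type had 4 arrays of Zeb2 fl/fl controls given poly(I:C), 4 arrays of Zeb2 fl/fl mice with the Mx1-Cre transgene given poly(I:C), called Zeb2-deficient here, and 1 array of an untreated Zeb2 fl/fl control. All mice thus carried the floxed alleles, and no group carried Mx1-Cre with wild-type Zeb2, so the transgene and the loss of Zeb2 cannot be told apart. Poly(I:C) mimics double-stranded RNA and induces the interferon that switches Mx1-Cre on in many cell types. The mice received it at 150 µg, 2 times inside 48 h, 3 weeks before their marrow was collected. Their age is not given in the sources used here. Whether each array of a group was a different animal is not said in the labels either. The p-values therefore measure only how these samples spread, and that spread may be technical.

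Ribosomes are built from a small and a large subunit, each a shell of proteins on an RNA core. The small subunit decodes the messenger RNA, the large subunit joins the amino acids, and the acidic stalk proteins recruit translation factors. Messenger RNAs of ribosomal proteins typically begin with a run of pyrimidines, the 5′ terminal oligopyrimidine tract, through which their translation follows nutrient and growth signals. Neutrophils close down much of their biosynthesis as they mature, whereas marrow monocytes remain biosynthetically active. Several ribosomal protein genes are mutated in Diamond-Blackfan anaemia, an inherited failure of red cell formation.

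In the control arrays the markers matched the sorted identities. Of 10 monocyte markers tested, 9 were higher in control monocytes than in control neutrophils, and all 12 mature neutrophil markers were lower. In Zeb2-deficient monocytes all 12 of the latter rose, as described with the genotype comparison. Zeb2 read 9.86 to 10.08 (log2) in control monocytes and 8.74 to 9.84 in Zeb2-deficient monocytes, and 6.86 to 7.54 and 7.10 to 8.25 in the corresponding neutrophils, with 9.75 and 6.66 in the untreated arrays. Neither genotype difference passed the test (limma adjusted p = 0.272 and 0.972). Whether the probes of Zeb2 lie in the deleted part was not examined, so this level is no check of the deletion. Apart from group, the arrays fell into a set A (control numbers 1 and 2, Zeb2-deficient numbers 1 and 2) and a set B (control numbers 4 and 5, Zeb2-deficient numbers 3 and 4), separated by 32.39% of the variance of the deviations from group means. Each set held 2 arrays of every poly(I:C) group. The labels do not name what distinguishes the sets.

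RefSeq start sites (build GRCm38.p6) were at hand for 49 of the 61 genes, with 58 start sites and 300 bases each, 250 upstream and 50 downstream. The windows below show 30 bases around the longest pyrimidine run near the start, 5′ to 3′ on the strand of the gene. Capitals mark the longest unbroken run of C or T inside 40 bases either side of the start, if of at least 8 bases. A run that crosses the edge of this stretch is counted only up to the edge. Of runs of equal length the first is marked, as in Rps27l, whose window ends in another. Where a gene had several start sites, the window with the longest run is given. The first set holds genes chosen from those with the largest difference between the cell types. Not all such genes are shown, and Rps19 is left out. Its longest run counted this way had 8 bases at any start site, but that run continues upstream beyond the 40 bases.
Rpl10a (chr17:28328572-28328601, plus strand): aagcgctctgCCTTCTTTCCggtttccgcg
Rps18 (chr17:33955648-33955677, minus strand): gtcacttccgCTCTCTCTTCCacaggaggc
Rpl5 (chr5:107900497-107900526, plus strand): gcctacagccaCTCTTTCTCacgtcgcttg
Rpl14 (chr9:120571501-120571530, plus strand): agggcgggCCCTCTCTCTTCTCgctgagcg
Rpl36a (chrX:134585672-134585701, plus strand): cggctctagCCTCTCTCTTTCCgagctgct
The second set holds genes with the smallest difference among the subunit proteins. Rpl12 had no run of this length and is shown around its start.
Rps25 (chr9:44407684-44407713, plus strand): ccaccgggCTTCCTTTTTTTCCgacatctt
Rpl34 (chr3:130730330-130730359, minus strand): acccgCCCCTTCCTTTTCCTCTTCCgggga
Rps9 (chr7:3704024-3704053, plus strand): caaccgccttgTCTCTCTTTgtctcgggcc
Rpl12 (chr2:32961697-32961726, plus strand): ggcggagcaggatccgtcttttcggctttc
The third set holds paralogues, copies of a ribosomal protein gene with divergent sequence or tissue use.
Rps27l (chr9:66946053-66946082, plus strand): ccccgcctccaCTCCTCTCCactcctcccc
Rpl32l (chr10:20208429-20208458, plus strand): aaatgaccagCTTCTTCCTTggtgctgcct
Rpl7l1 (chr17:46782642-46782671, minus strand): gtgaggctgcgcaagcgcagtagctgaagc
A run of at least 8 pyrimidines inside 40 bases of the start was found in 36 of the 58 promoters (62.1%). The share was 29.3% of all 32851 promoters in the table. Of the genes shown in the first and second sets, all but Rpl12 carried such runs, for example 14 bases in Rpl14 and 14 bases in Rps25. The letters CGGAAG, the core recognised by ETS-family factors, occurred on either strand in 36 of the 58 (62.1%), against 16.9% of all promoters. CACGTG, the E-box recognised by Myc and Max, occurred in 12.1% against 7.15%, TATAAA in 10.3% against 13.6%, and CCAAT in 27.6% against 37.4%. These matches describe sequence only.

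Monocytes had more ribosomal protein transcript signal than neutrophils, in nearly every gene and in both genotypes. In the poly(I:C) controls, 54 of 59 genes were higher in monocytes and 1 was lower, where 29.9% of all genes tested were higher and 28.7% lower (limma, Benjamini-Hochberg adjusted p under 0.05). The median difference was 1.33 (log2), against -0.08 for all genes. Of the 59, 40 were called with a difference of at least 2-fold, against 2762 of all 13387 genes tested, counted in either direction. In 56 of 59 the 4 monocyte arrays all lay above the 4 neutrophil arrays, which held for 28.6% of all genes. With arrays centred on the 75th percentile, the median of all genes moved to -0.28 and 3164 of 9477 calls over all genes were higher, against 3998 of 7846 as deposited. On that scale 53 ribosomal protein genes were called higher, with a median of 1.13. With quantile normalization the count was 51 and the median 0.95. Values on these arrays are relative to the other RNAs of the same sample, and in sorted bulk RNA fewer cells that express a gene and less RNA per cell cannot be told apart. Markers of other cells differed in the same comparison, in both directions. Of 7 promyelocyte markers 4 were higher in control monocytes (Mpo 3.51, Elane 3.13, Ctsg 2.80 and Prtn3 2.74) and none was lower, and their summed signal was 9.23 to 11.86 against 8.05 to 8.25 in control neutrophils. Of 7 dendritic cell and antigen presentation markers 6 were higher, among them Cd74 at 3.69 and H2-Aa at 3.38, and 1 was lower, with sums of 10.06 to 10.80 against 8.16 to 8.44. For basophil and mast cell markers the sums were 6.91 to 7.45 against 10.77 to 10.85, carried mainly by Hdc. It differed by -5.33, and Mcpt8, Gata2 and Prss34 by -0.12, -0.34 and -0.33. For T and NK cell markers the sums were 7.02 to 7.14 against 7.82 to 8.29. Cd3d differed by -3.14, and Cd3g, Bcl11b and Cd3e by -0.92, -0.32 and -0.14. Stem and progenitor markers gave sums of 8.05 to 8.41 against 9.06 to 9.19, but did not all go the same way. Of those tested, Erg (-2.80), Kit (-1.53), Myb (-0.97) and Gata2 (-0.34) were lower, and Flt3 (1.55) and Meis1 (0.70) were higher. Erythroid and eosinophil sums were lower in control monocytes, B cell sums were higher and megakaryocyte sums overlapped. Of the B cell markers tested only Cd79b was called higher, at 1.59. Pax5, Vpreb1, Vpreb3 and Igll1, at -0.15, 0.13, -0.37 and -0.18, were not called. The part of these markers in the ribosomal protein difference was not tested.

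**Figure D1:**
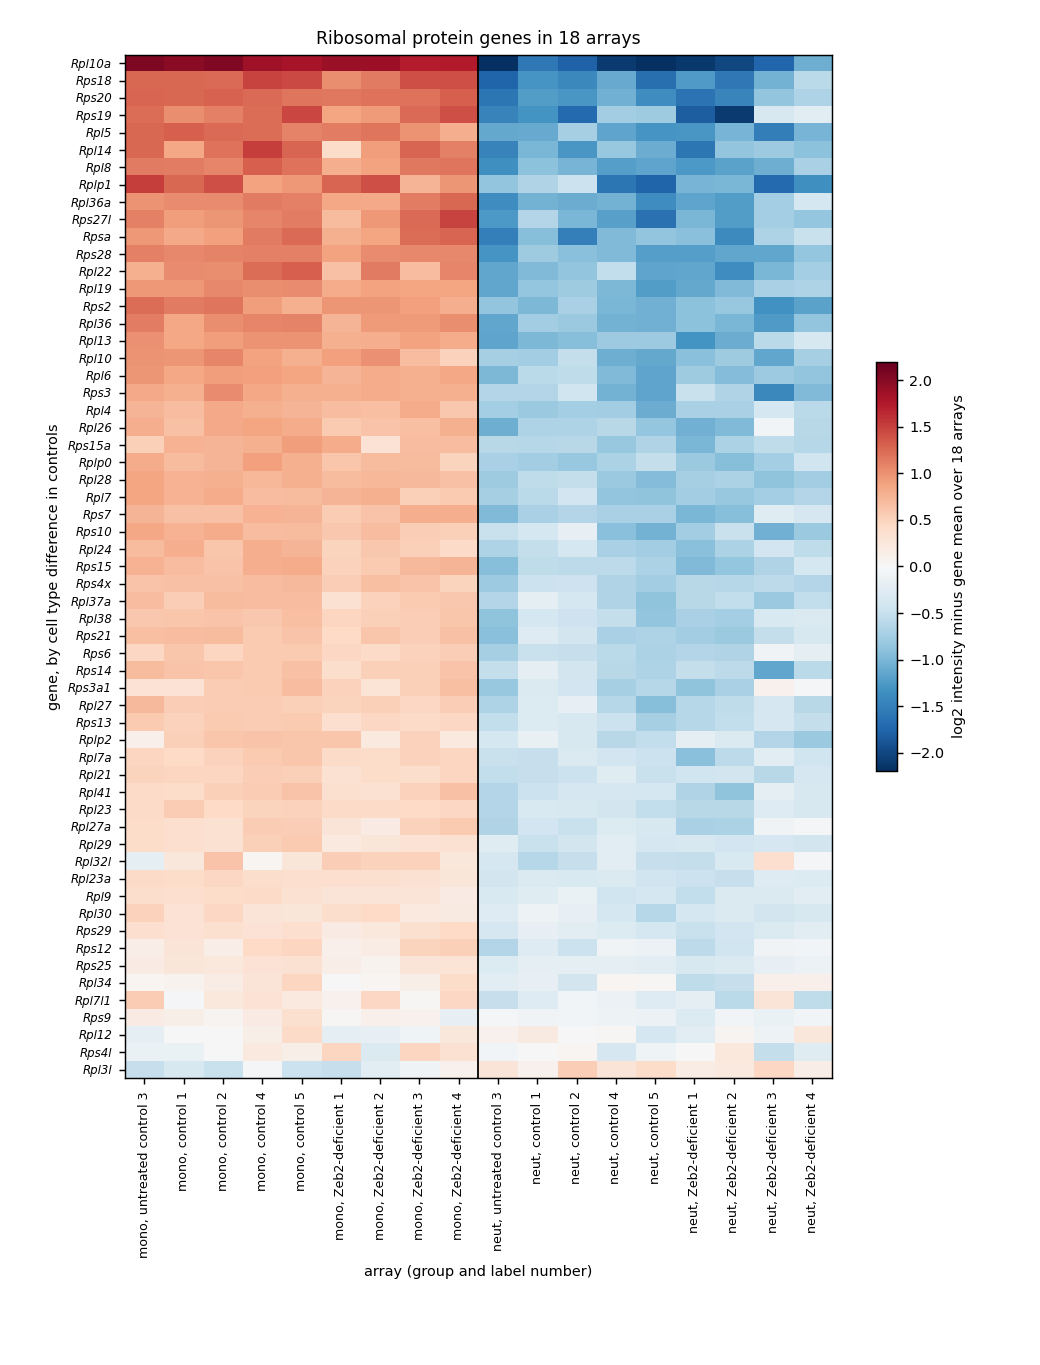
Heat map of the 59 ribosomal protein genes tested (rows, ordered by the control cell type difference) in the 18 arrays (columns, by group and label number). Colour gives the log2 intensity minus the mean of that gene over the 18 arrays, with values beyond the ends of the scale in the end colour. The 9 monocyte columns are above the gene mean and the 9 neutrophil columns below it for most genes, with Rpl3l the other way round.

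The array medians over the 59 genes showed the same separation. They were 11.41 to 11.55 in the 4 control monocyte arrays and 11.32 to 11.47 in the Zeb2-deficient ones, with 11.52 in the untreated array. In neutrophils they were 9.63 to 10.04 in the controls and 9.74 to 10.13 in the Zeb2-deficient arrays, with 9.78 untreated. No neutrophil array came near a monocyte array. Spread between replicates was smaller in monocytes, where the median SD over the genes was 0.09 in controls and 0.12 in Zeb2-deficient arrays (n = 4 each), than in neutrophils, at 0.18 and 0.23. Over all genes the corresponding values were 0.16 and 0.21 in monocytes and 0.16 and 0.19 in neutrophils. Neutrophil arrays also numbered 25 to 31 ribosomal protein genes above 10 on the log2 scale, against 44 or 45 in each monocyte array.

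All 21 genes of the small subunit were higher in control monocytes, with a median difference of 1.33. Rps18, which sits at the head of the small subunit near its contact with the large one, read 11.43, 11.40, 11.65 and 11.61 in control monocytes and 8.86, 8.74, 9.05 and 8.51 in control neutrophils. The groups lay far apart, and the difference of 2.73 ± 0.17 (SE, n = 4 each) had limma adjusted p = 2.24e-10. Rps20, a neighbouring head protein, read 12.11, 12.15, 12.10 and 12.04 against 9.63, 9.57, 9.80 and 9.49. Its difference was 2.48 ± 0.15 (SE), and again no array overlapped.

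Rps19, the gene most often mutated in Diamond-Blackfan anaemia, differed by 2.35 ± 0.34 (SE, limma adjusted p = 9.33e-06), with the largest SE of the 59. Control monocytes read 9.28, 9.36, 9.49 and 9.73 and control neutrophils 6.95, 6.55, 7.49 and 7.48. In each group the 2 arrays of set B lay above the 2 of set A. Zeb2-deficient neutrophils were the most divided, at 6.44 and 6.15 in set A and 7.91 and 8.0 in set B. Of the genes linked to that anaemia 11 were tested here. All 11 were higher in control monocytes, with a median of 1.49 and a lowest value of 0.61 in Rps29. These 11 are part of the 59, of which 54 were higher, with a median of 1.33, against 29.9% of all genes tested.

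At the other end of the small subunit stood Rps9, which binds the ribosomal RNA early in assembly. It read 11.40, 11.32, 11.44 and 11.61 in control monocytes and 11.19, 11.21, 11.15 and 11.14 in control neutrophils. The groups did not overlap, but the difference was only 0.27 ± 0.09 (SE, limma adjusted p = 0.014), and it turned to -0.15 (adjusted p = 0.162) with quantile normalization. It was also the only gene of the small subunit not called in the Zeb2-deficient arrays, at 0.16 (limma adjusted p = 0.124). With quantile normalization it was called lower in those monocytes, at -0.30 (limma adjusted p = 0.00804). Without control monocyte array 5 the control difference of Rps9 was 0.22 (limma adjusted p = 0.0567), and without Zeb2-deficient monocyte array 4 the Zeb2-deficient one was 0.22 (limma adjusted p = 0.0334). A second Rps9 probe set differed by 0.75 in the controls. Rps25, a head protein used by some viral entry sites, read 11.92 to 12.01 in the 4 control monocyte arrays and 11.44 to 11.48 in the 4 neutrophil arrays, a difference of 0.51 ± 0.08 (SE, limma adjusted p = 1.48e-05). Under quantile normalization that difference fell to 0.09 (adjusted p = 0.238).

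In the large subunit, 28 of 30 genes were higher in control monocytes, with a median of 1.38. Rpl10a, which lies at the side lobe opposite the acidic stalk, had the largest difference of the 59. Control monocytes read 11.74, 11.79, 11.62 and 11.58 and control neutrophils 8.19, 7.99, 7.65 and 7.39. The difference was 3.88 ± 0.19 (SE, limma adjusted p = 1.16e-11), or 14.7-fold, and its 4 probe sets gave 3.62 to 3.88. In the Zeb2-deficient arrays it was 3.55 ± 0.19 (SE, limma adjusted p = 7.14e-11), and set A and set B changed places between the neutrophil groups: set A was higher in controls and set B in Zeb2-deficient cells.

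Rpl5, which carries the 5S RNA into the ribosome and restrains Mdm2 when assembly fails, read 11.22, 11.15, 11.12 and 10.99 against 8.79, 9.17, 8.74 and 8.60. Its difference was 2.30 ± 0.13 (SE, limma adjusted p = 1.25e-10). Rpl14, Rpl8 and Rpl36a differed by 2.26 ± 0.20, 2.25 ± 0.13 and 2.22 ± 0.16 (SE). None of these had overlapping arrays. Rpl22, a large subunit protein that is dispensable for translation in most cells but needed in T cell development, differed by 2.03 ± 0.16 (SE), and Rpl10, among the last proteins to join the subunit, by 1.80 ± 0.14 (SE).

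The large subunit genes that did not pass in the controls were Rpl34 and Rpl12. Rpl34 read 8.41, 8.49, 8.61 and 8.80 in monocytes and 8.14, 7.92, 8.37 and 8.35 in neutrophils, which did not overlap. Its difference was 0.38 ± 0.17 (SE, limma adjusted p = 0.0545), just outside the threshold. It passed in fits that blocked on the array set (limma adjusted p = 0.00389) or on the replicate number (limma adjusted p = 0.0103). It also passed in 7 of 16 fits that left out 1 array (limma adjusted p of 0.0439 to 0.0487). Leaving out a Zeb2-deficient array does not alter the control difference, only its SE and p. Rps12 had the smallest difference after Rps9 and Rps25 among genes called higher, at 0.58 ± 0.13 (SE, limma adjusted p = 0.00125). The 14 probe sets of Rps12 gave 0.58 to 1.09. Rpl12, which forms the base of the stalk, read 5.06, 5.07, 5.19 and 5.49 against 5.26, 5.07, 5.09 and 4.68, overlapping, with a difference of 0.18 ± 0.15 (SE, limma adjusted p = 0.31). Its only probe set did not exceed the 60th percentile in 8 arrays, so its level was near that of genes with little signal.

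All 3 stalk genes were higher in control monocytes. Rplp0, the stalk's anchor, read 11.99, 12.04, 12.21 and 12.09 against 10.53, 10.46, 10.61 and 10.78, a difference of 1.49 ± 0.10 (SE, limma adjusted p = 1.08e-09). Rplp1, which pairs with Rplp2 on that anchor, read 12.15, 12.29, 11.76 and 11.83 against 10.22, 10.41, 9.29 and 9.12. Its difference was 2.25 ± 0.25 (SE, limma adjusted p = 4.39e-07). Rplp2 differed by 1.01 ± 0.14 (SE, limma adjusted p = 8.02e-06). Rplp1 was spread wider than its partners, and set A lay above set B in every group.

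**Figure D2:**
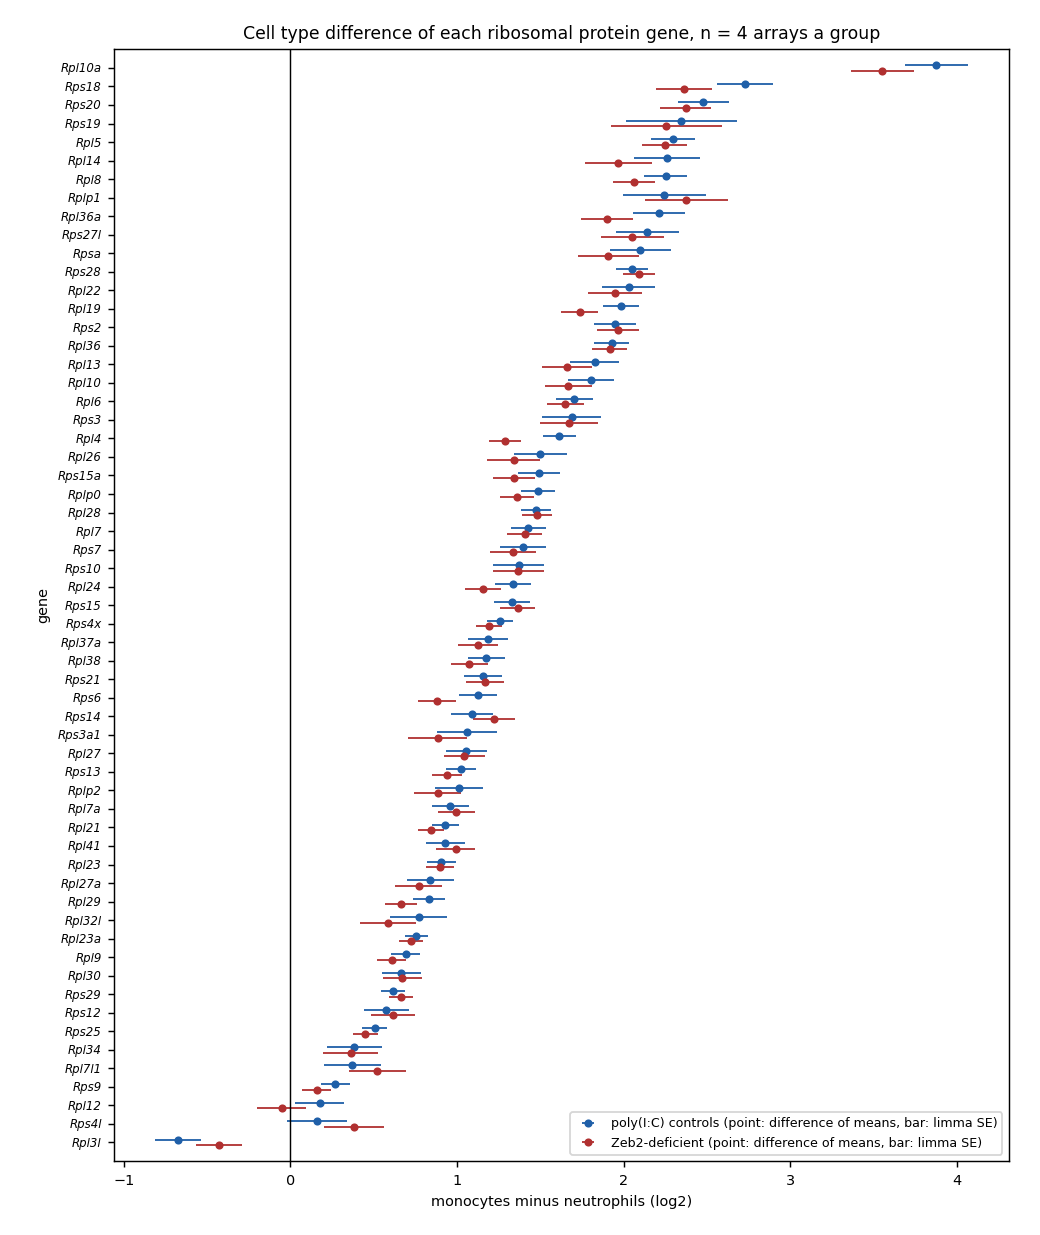
Difference between monocytes and neutrophils (log2) for each of the 59 genes, in poly(I:C) controls (blue) and Zeb2-deficient arrays (red); points are differences of means of 4 arrays each, bars the limma SE. All but Rpl3l lie above 0 in the controls, from 0.16 for Rps4l to 3.88 for Rpl10a, and the red points follow the blue ones closely.

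The paralogues did not move as 1 block. Rps27l, an Rps27 copy that p53 induces, was higher in control monocytes by 2.14 ± 0.19 (SE, limma adjusted p = 2.62e-08), with 9.20, 9.25, 9.36 and 9.40 against 7.64, 7.28, 7.09 and 6.63. Rpl32l was higher by 0.77 ± 0.17 (SE, limma adjusted p = 0.000829). Rpl3l, a copy of Rpl3 used in heart and skeletal muscle, was the only gene lower in monocytes, by -0.67 ± 0.14 (SE, limma adjusted p = 0.000424). It read 4.27, 4.14, 4.58 and 4.15 in monocytes and 4.72, 5.17, 4.91 and 5.03 in neutrophils, below the 60th percentile of each of these arrays. Rpl7l1, which takes part in ribosome assembly, and Rps4l did not pass, at 0.37 ± 0.17 and 0.16 ± 0.18 (SE, limma adjusted p = 0.0664 and 0.447). Rps4l turned to -0.02 under quantile normalization, and its other probe set differed by 0.57.

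The balance of these last paralogues with their parents did not pass the test between the cell types after adjustment, although no arrays overlapped in the controls. The log2 value of Rps4l minus that of Rps4x in control monocytes minus that in control neutrophils was -1.10 ± 0.11 (SE, n = 4 each), with Rps4x itself different by 1.26 ± 0.08 (SE). For Rpl7l1 minus Rpl7 the value was -1.06 ± 0.14 (SE), with Rpl7 different by 1.43 ± 0.11 (SE). Each had a two-sided exact permutation p = 0.0286, the smallest that 4 arrays against 4 can give, and 0.0572 after adjustment over the 8 tests of this kind. In Zeb2-deficient arrays the values were -0.81 ± 0.27 and -0.88 ± 0.24 (SE, exact permutation p = 0.0286 each, adjusted 0.0572). No genotype difference in the balance was detected in either cell type (adjusted exact permutation p of 0.419 or more). With quantile normalization the control values were -0.78 and -0.87 and the Zeb2-deficient values -0.51 and -0.69 (adjusted exact permutation p of 0.114 or more).

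**Figure D3:**
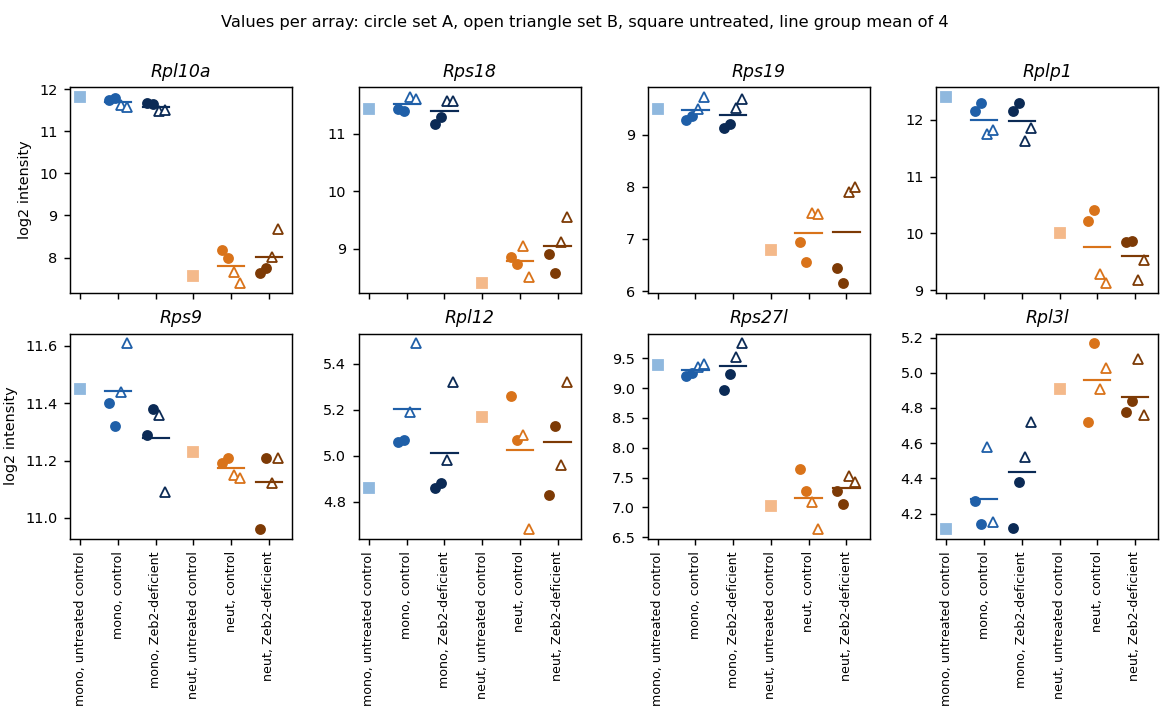
Log2 intensity per array of 8 genes in the 6 groups; circles are arrays of set A, open triangles set B, squares the untreated arrays, and lines the means of 4. Rpl10a, Rps18, Rps19, Rplp1 and Rps27l separate the cell types, Rps9 and Rpl12 hardly do, and Rpl3l is lower in monocytes; Rps19 and Rplp1 shift in opposite directions between sets A and B.

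Zeb2-deficient cells showed the same cell type difference. Between Zeb2-deficient monocytes and neutrophils, 54 of 59 genes were higher and 1, Rpl3l, was lower, where 30% of all genes were higher and 32.1% lower (limma, adjusted p under 0.05). The median was 1.22, against -0.09 for all genes. With quantile normalization 49 were called higher and 2 lower, the latter Rpl3l and Rps9. In 52 of the 59 the arrays of the cell types did not overlap and monocytes were higher, against 25.2% of all genes. Of the genes called higher, 53 were called in both genotypes, Rps9 only in the controls and Rpl7l1 only in Zeb2-deficient cells. Rank order of the differences was nearly the same in both genotypes (Spearman 0.98 over 59 genes), a description over genes measured in the same kinds of sample. The genes with the largest differences in the Zeb2-deficient arrays were Rpl10a, Rplp1 at 2.38 ± 0.25 (SE), Rps20 at 2.37 ± 0.15 and Rps18 at 2.36 ± 0.17. Rps28, a small subunit protein at the messenger RNA exit, differed by 2.09 ± 0.10 (SE), and its limma adjusted p of 1.04e-11 was the smallest of the 59. Rpl12 read -0.05 ± 0.15 (SE, limma adjusted p = 0.773) there, and ranged from -0.16 to 0.03 when single arrays were left out.

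Different probe sets of the same gene gave the same direction. Of the 217 probe sets, 215 passed the filter on low values. Of these, 214 had a higher mean in control monocytes than in control neutrophils, and in 212 the arrays did not overlap. Over all genes tested, each read from 1 probe set, arrays did not overlap upwards in 28.6%. The probe sets are not all separate measurements, as the 3 of Rpl41 gave the same difference of 0.929. All 39 genes with several probe sets had only positive differences, with a median spread between probe sets of 0.27 and a largest spread of 1.25, in Rpsa, whose 5 probe sets ran from 2.10 to 3.35. Ribosomal protein genes have many processed copies in the mouse genome, and probe sets with near-identical targets were not told apart here.

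Across the 59 genes the Spearman correlation of the difference was 0.14 with the control monocyte level and -0.25 with the control neutrophil level. Over the 54 that are no paralogue the values were -0.01 and -0.50. The level enters both quantities, so part of each value follows from the arithmetic. The points share their arrays and no p is given.

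No ribosomal protein gene was detected as changed in Zeb2-deficient monocytes. None of the 59 was called, against 7.54% of all genes tested, 5.11% higher and 2.44% lower (limma, adjusted p under 0.05), and 1 had an unadjusted p under 0.05. That gene was Rpl24, a large subunit protein at the bridge to the small one. It read 11.34, 11.15, 11.34 and 11.29 in controls and 11.04, 11.13, 11.06 and 10.97 in Zeb2-deficient monocytes. These did not overlap, and the difference was -0.23 ± 0.11 (SE, limma adjusted p = 0.238). In 8 genes, all with lower values in Zeb2-deficient monocytes, the arrays did not overlap, or 13.6% of 59, against 3.92% of all genes in that direction. In the other direction the count was 0, against 6.12% of all genes. The 1010 calls over all genes became 2001, 621 and 620 without Zeb2-deficient monocyte arrays 2, 3 and 4, with no ribosomal protein gene among them.

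The small differences in monocytes leaned downwards. The value was below 0 in 53 of 59 genes, against 57.4% of all genes, with a median of -0.09 (all genes -0.03) and a range of -0.28 to 0.18. All 30 large subunit genes and all 3 stalk genes were below 0, as were 20 of 21 small subunit genes, and all 5 paralogues tested were above 0. After Rpl24 the smallest p-values belonged to Rps9 at -0.16 ± 0.09, Rpl29 at -0.17 ± 0.10, Rpl22 at -0.27 ± 0.16, Rplp0 at -0.15 ± 0.10 and Rps15a at -0.18 ± 0.12 (SE, limma adjusted p of 0.33 to 0.469). The direction of Rpl27, Rplp1, Rps12, Rps7 and Rpsa depended on the scaling. With quantile normalization 48 genes were below 0 and the median was -0.06. Within set A the median was -0.11 and within set B -0.07.

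Markers of granulocytes moved in the same monocyte arrays. All 12 mature neutrophil markers rose in Zeb2-deficient monocytes, by a median of 2.71, and all 7 promyelocyte markers tested rose, by a median of 2.67. The summed signal of the mature neutrophil list was 12.29 to 14.10 (log2) in control monocytes, 14.71 to 15.21 in Zeb2-deficient monocytes and 15.91 to 15.94 in control neutrophils. For the promyelocyte list it was 9.23 to 11.86, 11.83 to 13.76 and 8.05 to 8.25. Ly6g, a defining neutrophil marker, read 3.59 to 4.48 in control monocytes, 8.35 to 9.59 in Zeb2-deficient monocytes and 11.66 to 12.06 in control neutrophils. Of the cell cycle list, 12 of 29 genes rose, with a median of 0.62. Of 10 monocyte markers 3 fell and none rose. No call was made among 5 erythroid, 5 megakaryocyte, 5 B cell and 4 T or NK cell markers in this comparison. Of 6 stem and progenitor markers 3 rose and 1 fell, 1 of 4 basophil and mast cell and 1 of 2 eosinophil markers rose, and 1 of 7 dendritic cell markers fell. The part of these shifts in the ribosomal protein values was not tested.

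**Figure D4:**
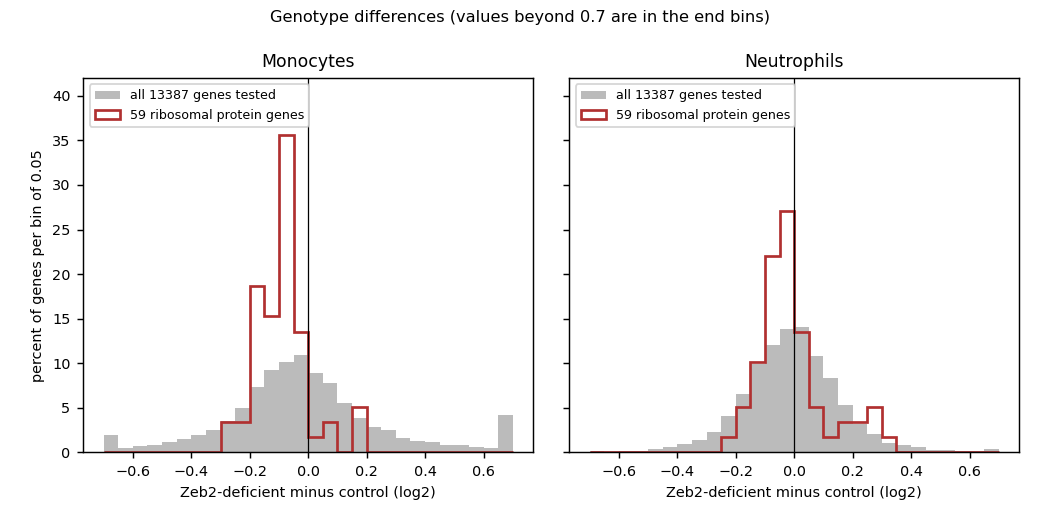
Distribution of the genotype difference (Zeb2-deficient minus control, log2) in monocytes and neutrophils, as percent of genes per bin, for all 13387 genes tested (grey) and the 59 ribosomal protein genes (red outline). The ribosomal protein genes lie between -0.28 and 0.18 in monocytes, mostly just below 0, and between -0.23 and 0.34 in neutrophils.

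In neutrophils no ribosomal protein gene was called either, against 0.12% of all genes tested, 0.105% higher and 0.0149% lower (limma, adjusted p under 0.05), and 1 of 59 had an unadjusted p under 0.05. Rpl4, an early-assembling large subunit protein, read 9.90, 9.97, 9.96 and 9.63 in controls and 10.01, 10.01, 10.34 and 10.13 in Zeb2-deficient neutrophils. The arrays did not overlap, by a narrow margin, which held upwards for 1.84% and downwards for 1.59% of all genes, and the difference was 0.26 ± 0.10 (SE, limma adjusted p = 0.859). Next were Rpl32l at 0.34 ± 0.17, Rps14 at -0.23 ± 0.12, Rpl36a at 0.25 ± 0.16, Rps6 at 0.17 ± 0.11 and Rps18 at 0.25 ± 0.17 (SE, limma adjusted p of 0.989 or more). The median over the 59 was -0.04, with 39 below 0. With quantile normalization it was 0.01, with 28 below 0, and 13 genes changed sign with the scaling. Without single arrays the median ran from -0.07 to -0.003, the latter without Zeb2-deficient neutrophil array 1, where 30 were below 0. The 16 calls over all genes became 8 without that array and 9 without control neutrophil array 4. The median had opposite signs within the array sets, -0.24 in set A with 53 of 59 below 0 and 0.14 in set B with 11 of 59 below 0, and no gene was called in either.

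The genotype difference was then compared between the cell types. No gene was called for this interaction, against 2.68% of all genes tested, 2.17% positive and 0.515% negative (limma, adjusted p under 0.05), and 1 of 59 had an unadjusted p under 0.05. Rpl4 had the smallest p, with -0.33 ± 0.14 (SE, limma adjusted p = 0.293), followed by Rpl19 at -0.25 ± 0.16, Rps18 at -0.37 ± 0.24, Rps6 at -0.25 ± 0.16, Rpl36a at -0.32 ± 0.22 and Rpl3l at 0.25 ± 0.19 (SE). The median was -0.07, with 44 of 59 below 0, and 13 genes changed sign with the scaling. Without control neutrophil array 5 it was -0.011, with 32 below 0. The 359 calls over all genes became 904 without Zeb2-deficient monocyte array 2, and no ribosomal protein gene was among them. Within set B alone the median was -0.26, and 4 of the 59 were called, against 731 of all 13387 genes tested. These 4 were Rpl19, Rpl24, Rps3a1 and Rps6, all negative. Within set A the median was 0.12 and no ribosomal protein gene was called, against 72 of all 13387.

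Some ribosomal protein genes differed between the array sets in every group. For 8 of the 59 (13.6%), the 2 arrays of set B lay on the same side of the 2 arrays of set A in all 4 groups, against 5.4% of all genes. Rps19, Rpl34, Rps12, Rpl27a and Rpl13 were higher in set B, by means over the groups of 0.78, 0.37, 0.33, 0.32 and 0.27. Rplp1, Rps10 and Rps2 were lower, by -0.64, -0.31 and -0.25. For Rps19 the difference between the sets ran from 0.30 in control monocytes to 1.66 in Zeb2-deficient neutrophils. For Rplp1 it ran from -0.43 in control monocytes to -1.11 in control neutrophils. These 8 were picked out after their values were seen, and since the sets came from the arrays themselves no test is given. The cell type difference held in both sets, with 54 genes higher in controls in each and medians of 1.12 and 1.45.

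The untreated arrays, 1 for each cell type, allow no test. In monocytes the untreated value lay above the range of the 4 poly(I:C) controls in 14 genes and below it in 15, with a median deviation from their mean of 0.01. Over all genes the shares were 22.6% above and 15.4% below. In neutrophils 3 genes lay above and 22 below, with a median of -0.11, against 18.4% and 18.6% of all genes. The most distant were Rpl32l at -0.49 and Rplp2 at -0.48 in monocytes and Rpsa at -0.43, within the control range, in neutrophils, and upward Rplp1 at 0.41 and 0.25, the latter also within the range. The untreated neutrophil median of 9.78 stayed inside the span of the poly(I:C) neutrophil arrays.

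The machinery that makes and uses ribosomes was compared from lists of genes. Over all genes tested, 29.9% were higher and 28.7% lower in control monocytes. In ribosome biogenesis, 45 of 48 genes were higher in control monocytes and none lower, with a median of 1.39. Fbl, the methyltransferase of ribosomal RNA processing, differed by 3.72 ± 0.18 and Ddx10, a helicase of subunit assembly, by 2.91 ± 0.12 (SE, limma adjusted p = 6.87e-12 and 7.52e-13). Of 11 genes of RNA polymerase I and its factors, which transcribe ribosomal RNA, 8 were higher and 1 lower, with a median of 0.64. Rrn3, the initiation factor of that polymerase, was higher by 2.03 ± 0.26, whereas Polr1a, its largest subunit, was lower by -1.69 ± 0.14 (SE, limma adjusted p = 2.48e-06 and 1.27e-08).

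Most translation factor genes were also higher in control monocytes, against 29.9% of all genes tested. Of 32 initiation factor genes, 26 were higher in control monocytes and 1 lower, with a median of 1.01. Eif3e and Eif3h, subunits of the factor that bridges messenger RNA and small subunit, were higher by 2.88 ± 0.18 and 1.87 ± 0.12 (SE, limma adjusted p = 2.66e-10 and 3.4e-10). Elongation and termination genes were higher in 8 of 9, with a median of 1.40, among them the release factor Gspt1 at 1.98 ± 0.15 and the exchange factor Eef1b2 at 1.68 ± 0.13 (SE). Of 17 tRNA synthetase genes, 15 were higher, with a median of 0.98, among them Eprs at 2.19 ± 0.13 and Tars at 2.06 ± 0.13 (SE). Ribosome-associated factors were higher in 4 of 4, including Naca, part of the nascent chain complex, at 1.91 ± 0.15 (SE). The ribosomes of mitochondria, made of other proteins, were higher in 63 of 77 genes and lower in 2, with a median of 0.85. Mrpl52 and Mrpl35 differed by 3.43 ± 0.26 and 2.27 ± 0.16 (SE).

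Growth regulators were mixed. Of 14 genes, 5 were higher and 3 lower in control monocytes, where 29.9% of all genes tested were higher and 28.7% lower. Mxd1, which opposes Myc by pairing with Max, was lower by -4.45 ± 0.24 and Max by -1.58 ± 0.09 (SE, limma adjusted p = 5.37e-11 and 9.16e-11). In Zeb2-deficient monocytes Mxd1 rose by 1.75 ± 0.24 and Myc, a transcription factor that drives ribosome production, by 1.54 ± 0.23 (SE, limma adjusted p = 0.00016 and 0.000326). The relation of these rises to the ribosomal protein values was not tested. Cell cycle genes were higher in 24 of 29 in control monocytes, with a median of 0.95, among them Mcm6 at 2.48 ± 0.21 and Pcna at 1.94 ± 0.14 (SE). Their part in the ribosomal protein difference was not tested.

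The ribosome and translation lists were also compared by genotype. In monocytes 2 of 48 biogenesis genes rose and 1 fell, where 5.11% of all genes tested rose and 2.44% fell. The risers were Wdr12 by 0.51 ± 0.14 and Ebna1bp2 by 0.49 ± 0.14 (SE, limma adjusted p = 0.028 and 0.0347). None of the mitochondrial ribosomal protein, initiation, elongation, RNA polymerase I or tRNA synthetase genes was called in either cell type by genotype. Over all genes 7.54% were called in monocytes and 0.12% in neutrophils. The smallest p-values among these uncalled lists in monocytes belonged to Mrpl33 at -0.31 ± 0.10 and Mrpl19 at 0.55 ± 0.17 (SE, limma adjusted p = 0.0557 and 0.0582). In neutrophils Lars, the leucyl-tRNA synthetase, stood at -0.48 ± 0.13 (SE, limma adjusted p = 0.37).

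**Figure D5:**
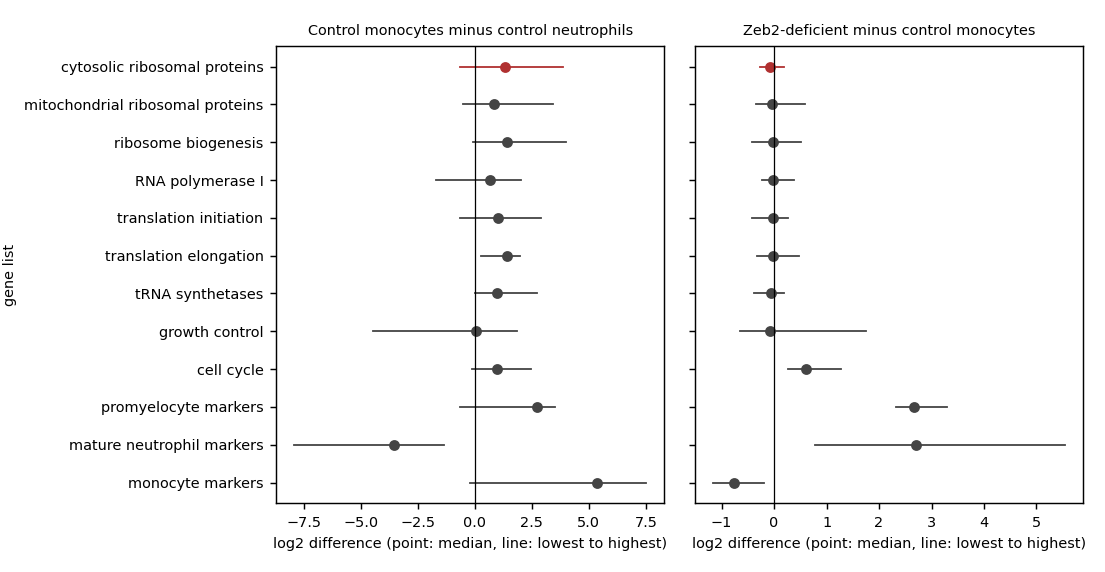
Medians (points) and lowest to highest differences (lines) in log2 for gene lists, for control monocytes minus control neutrophils and for Zeb2-deficient minus control monocytes; cytosolic ribosomal proteins are in red. The ribosome and translation lists lie mostly above 0 in the first comparison and near 0 in the second, where the granulocyte marker lists reach medians of 2.67 and 2.71.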

How the data were processed

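The values are log2 intensities per probe set, deposited after summarisation with RMA per the submitters' processing notes. RMA adjusts background, normalises between arrays and takes 1 value per probe set, so all differences are relative to the other transcripts of a sample. Values ran from 1.05 to 13.5. Gene names came from the platform annotation, and 1621 probe sets with several symbols were left out. A gene was represented by its probe set with the highest mean over all arrays.

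Groups were compared with limma 3.58.1 under R 4.3.3. All 18 arrays entered 1 model of group means, which left 12 residual degrees of freedom. The variance was allowed a trend, and p-values were adjusted over 13387 genes by Benjamini-Hochberg. All p-values are two-sided. The untreated arrays entered no contrast. On data simulated for the monocyte genotype comparison (13387 genes, 100 changed at each size), 97% of changes of 1 log2 unit and 40% of 0.5 were called. Paralogue balance used exact permutation tests over arrays. The number of arrays limits the precision.

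The genes and lists were chosen with earlier results of these data known. Named genes are, per cell type contrast, the 10 largest and 6 smallest differences, per genotype contrast and interaction the 6 smallest p-values, all paralogues with their parents, the stalk genes, and up to 2 genes per pathway list in the control cell type and each genotype contrast. Others were chosen after their values were seen.

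Array sets came from the first principal component of the deviations from group means, with ribosomal protein genes left out. Control and Zeb2-deficient arrays with the same label number correlated at 0.184 to 0.428 in 6 of 6 pairs within a cell type, and pairs of the same set with other numbers at 0.126 to 0.347. Monocyte and neutrophil arrays of the same number correlated at 0.059 to 0.259. The labels do not state a pairing. Alternatives covered scaling, the filter on low values, the choice of probe set, the variance trend, the arrays fitted, blocks for replicate number and array set, each set alone, and each array left out. Start sites and promoters are RefSeq's for GRCm38.p6. Protein sequences were not used here.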

Additional observations from a re-analysis of the deposited data

Results flagged for a closer look

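In 132 groups of 4 arrays, formed by 32 named genes and the array median, 5 (3.79%) had an array standing apart by Dixon's criterion, and chance gives about 1 in 20. Rpl14 read 6.05 in Zeb2-deficient neutrophil array 1, against 6.73 to 6.83 in the other 3. Rpl32l read 7.10 in Zeb2-deficient monocyte array 4, against 7.35 to 7.38. Rpl36a read 8.55 in control neutrophil array 5, against 8.83 to 8.88. Rps14 read 10.54 in Zeb2-deficient neutrophil array 3, against 11.09 to 11.17. Rps28 read 12.23 in Zeb2-deficient monocyte array 1, against 12.38 to 12.41. The 5 cases fell on 5 genes and 5 arrays.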

How the results depend on the processing

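The cell type medians and counts kept their direction under every alternative run. The control median of 1.33 became 0.95 with quantile normalization, 1.13 with arrays centred on the 75th percentile, 1.501 with the lowest probe set and 1.12 within set A. The Zeb2-deficient median of 1.22 became 0.84 and 0.98 with the first 2 of these. Leaving out single arrays gave 1.24 to 1.35 and 1.21 to 1.27. The neutrophil genotype median was -0.24 within set A and 0.14 within set B. The interaction median was 0.12 and -0.26, with 4 ribosomal protein genes called in set B, among 731 calls over all genes. The causes were not tested. Reversals among named genes in the control contrast were Rps4l (-0.016 quantile, -0.042 at the 75th percentile, -0.089 in set A), Rps9 (-0.148 quantile) and Rpl12 (-0.026 at the 75th percentile, -0.10 in set A). In the Zeb2-deficient contrast they were Rps9 (-0.30 quantile, adjusted p = 0.00804, and -0.083 at the 75th percentile), Rps4l (-0.037 in set A) and Rpl12 (0.012 in set B, and -0.156 to 0.034 without single arrays). Within set A the neutrophil genotype differences of Rpl36a, Rps6 and Rps18 turned to -0.138, -0.158 and -0.056, and the interactions of Rpl19 and Rps6 to 0.085 and 0.058. Of 1909 recomputed values for named genes, 1844 kept direction and call. Many of these could not change direction. Fits without an array outside the contrast, or with no variance trend, leave the difference itself as it was. Rpl3l lost its call in Zeb2-deficient cells within set B (-0.30, adjusted p = 0.196) and without Zeb2-deficient monocyte array 1 (-0.33, adjusted p = 0.051). In the fit with a replicate block, 0 ribosomal protein genes were called by genotype in either cell type, with medians of -0.13 and -0.07, and Rpl34 passed in both cell type contrasts (adjusted p = 0.0103 and 0.0135); no other named call changed. Over all genes, 1010 were called in monocytes by genotype, but 500 with only the arrays compared, 215 and 1724 within sets A and B, 1515 with the set as a block, and 2001, 621 and 620 without Zeb2-deficient monocyte arrays 2, 3 and 4. At 4 arrays a group the simulation called 40% of changes of 0.5 log2 units, and no ribosomal protein gene differed by that much between genotypes.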
